A study of Mus musculus with 24 samples.

Results

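The xenobiotic-metabolizing enzyme genes described here are the cytochrome P450 genes of the Cyp1, Cyp2, Cyp3 and Cyp4 families, the UDP-glucuronosyltransferase genes of the Ugt1a and Ugt2b families, the glutathione S-transferase genes of the Gsta, Gstm, Gstp and Gstt families, and the Sult1 sulfotransferase genes, in sorted cells of mouse distal ileum. Members were taken by gene symbol among protein-coding genes and kept where at least 10 reads were counted in at least 3 libraries of the CD45- fraction, so their CD45- counts chose them. Of 121 genes with these names in the count table, 53 passed, and 15558 of all 39056 genes passed the same count rule. The 53 were 26 cytochrome P450 genes (2 Cyp1, 12 Cyp2, 4 Cyp3 and 8 Cyp4), 7 Ugt genes, 16 Gst genes and 4 Sult1 genes. Just inside the rule were Cyp3a44 and Cyp4f18, with 10 or more reads in 3 CD45- libraries each, and just outside was Cyp2w1, with 10 or more reads in 2.

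Foreign compounds and many endogenous lipids are cleared in steps. Phase I enzymes, mostly cytochrome P450 monooxygenases of the endoplasmic reticulum, add or expose a reactive group, phase II transferases couple it to glucuronic acid, glutathione or sulfate, and phase III transporters export the product. In the small intestine the absorptive enterocyte is the best known site of these reactions, and nuclear receptors such as PXR and CAR and the aryl hydrocarbon receptor are known to control many of the genes.

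RNA was sequenced in bulk from pooled live CD45+ (hematopoietic) and CD45- (all other) cells sorted from distal ileum. Part of the intestinal epithelial cell suspension had been put back with the lamina propria cells before sorting. The mice were C57BL/6 (the J substrain in the study’s methods), of both sexes and 9 to 10.3 weeks old, and formed 4 genotypes of 3 libraries per fraction. Hoil1+/+ and Hoil1-/- were each combined with Il4ra f/f, called f/f below, and with Il4ra ΔIEC, called ΔIEC. Every mouse carried floxed Il4ra, which encodes the shared receptor chain for IL-4 and IL-13. The ΔIEC mice also carried Vil1cre, whose villin promoter drives Cre in intestinal epithelium and not in other CD45- cells. The Hoil1-/- mice carry a mutant Rbck1, the gene for the ubiquitin ligase subunit HOIL1, and the line still makes a low level of an N-terminal part of the protein. The design asks what loss of HOIL1 does to ileal gene expression and whether that depends on IL-4 receptor signaling in the epithelium.

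CD45- libraries held 6.03 M to 68.35 M counted reads and CD45+ libraries 14.94 M to 76.81 M. The study left 3 libraries out of its tests as outliers, 1 of them in the CD45- fraction (Hoil1-/- f/f replicate 3) and 2 in the CD45+ fraction. Here levels are given for all 24 libraries, and tests used the 11 CD45- or 10 CD45+ libraries of the study, with all 12 as an alternative. Rbck1 checked the Hoil1 labels: it lay at 72.8 to 110 CPM (counts per M counted reads, where M is mega, scaled between libraries by TMM) in the 6 Hoil1+/+ CD45- libraries, while the 6 Hoil1-/- ones had 0 to 7.31 CPM. Il4ra overlapped between CD45- f/f (55.9 to 156 CPM) and ΔIEC libraries (45.0 to 128 CPM), so it did not check the Il4ra labels. The labels do not say that libraries of a group are separate mice, so p-values measure only the spread between these libraries. Ptprc, which encodes CD45, lay at 0 to 16.2 CPM in the CD45- libraries and at 250.2 to 757 CPM in the CD45+ libraries.

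The make-up of the CD45- libraries differed widely within genotypes. The summed level of 17 enterocyte markers was 15962, 1745 and 2285 CPM in Hoil1+/+ f/f replicates 1 to 3, 44503, 47598 and 2970 CPM in Hoil1+/+ ΔIEC, 39705, 28777 and 2122 CPM in Hoil1-/- f/f, and 1491, 647 and 14557 CPM in Hoil1-/- ΔIEC. The summed level of 13 endothelial markers ran the other way, at 2023, 7202 and 3976 CPM in Hoil1+/+ f/f, 2335, 2186 and 6748 CPM in Hoil1+/+ ΔIEC, 1314, 2295 and 4603 CPM in Hoil1-/- f/f, and 7004, 8397 and 2876 CPM in Hoil1-/- ΔIEC. Both Hoil1-/- f/f libraries that entered the tests were enterocyte-rich, and 2 of the 3 Hoil1-/- ΔIEC libraries were enterocyte-poor. In bulk samples, fewer cells of a type and less RNA per cell cannot be told apart. Tuft cell markers summed to 838 and 1346 CPM in Hoil1-/- f/f replicates 1 and 2 and to 31.0 to 81.8 CPM in the other CD45- libraries. Xist, transcribed from the inactive X of female cells, exceeded 100 CPM in Hoil1+/+ ΔIEC replicates 1 and 2, in Hoil1-/- ΔIEC replicate 2 and in Hoil1-/- f/f replicate 3, and in none of the 5 f/f CD45- libraries that entered the tests. Sex was thus uneven over the tested genotypes, and its part in the results was not tested. Hepatocyte markers summed to at most 15.97 CPM in any CD45- library.

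The members together had a median of 1127 CPM in CD45- libraries and 368 CPM in CD45+ libraries. Under a rule of 10 or more reads in at least 6 CD45- libraries, which drops Cyp3a44 and Cyp4f18, the CD45+ median was 229 CPM and the CD45- median 1127 CPM. All 12 CD45- libraries lay above all 12 CD45+ libraries for 14 members, where 9.2% of all genes past the count rule did so: Cyp1b1, Cyp2c65, Cyp2d22, Cyp2j6, Cyp2s1, Cyp4b1, Cyp4f14, Ugt2b34, Ugt2b35, Gstm1, Gstm2, Gstm5, Gstt3 and Sult1d1. The reverse held for 1 member, Cyp4f18, where it held for 5.89% of all genes, and 38 members overlapped. Since the rule required counts in the CD45- fraction, the difference between fractions is a description and was not tested. Median levels were higher in CD45- libraries for 47 members (7802 of the 15558 genes past the count rule) and higher in CD45+ libraries for 5 (7150 of 15558). The CD45+ median was 0 for 21 members.

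**Figure D1:**
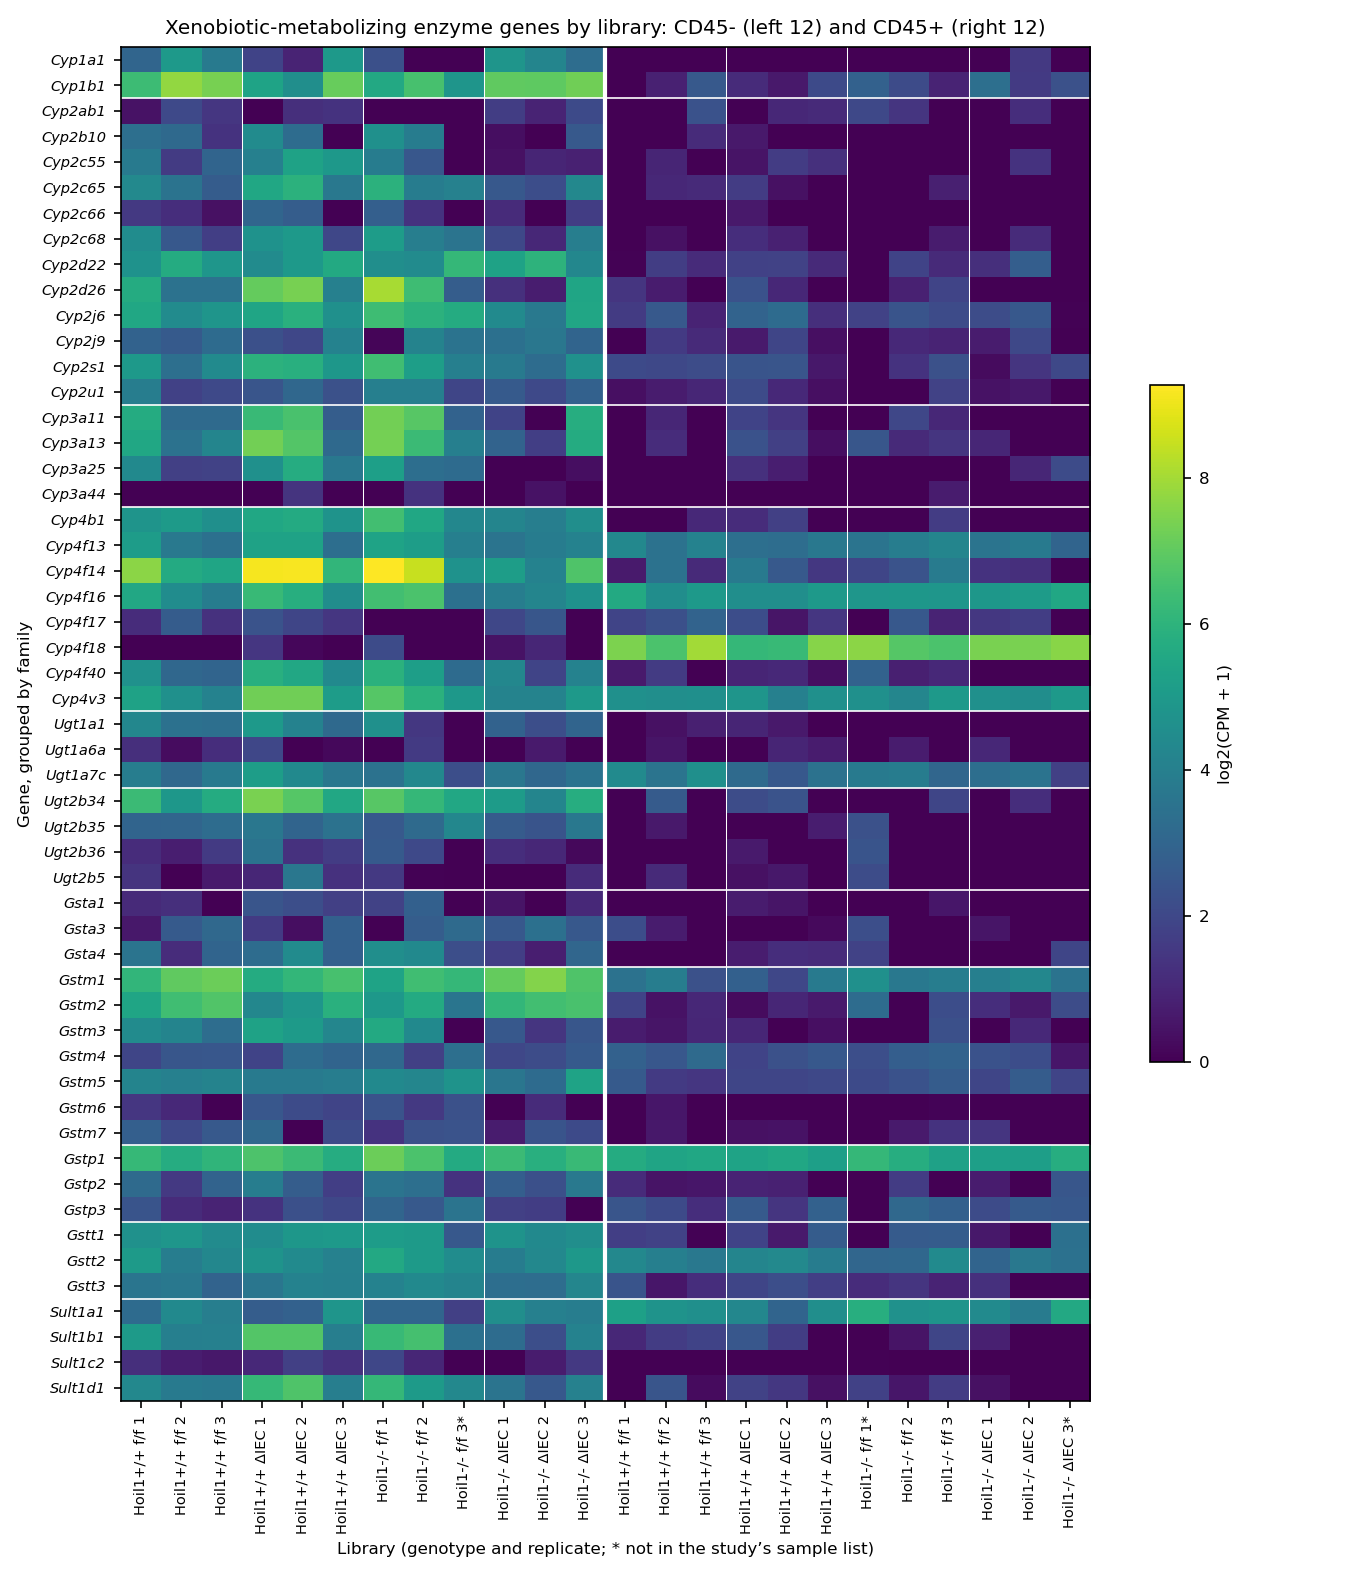
Level of each of the 53 members (rows, grouped by family) in each of the 24 libraries (columns, CD45- left and CD45+ right), as log2(CPM + 1). Most rows are brighter on the left, Cyp4f18 is bright only on the right (70.6 to 252 CPM against at most 3.30 CPM), and columns of 1 genotype differ among themselves.

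Among the phase I genes, Cyp4f14, an omega-hydroxylase of leukotriene B4 and of the vitamin E side chain, had the highest level for its length in the CD45- fraction, a median of 35.2 CPM per kb of exon. Its levels were 201, 49.8 and 43.0 CPM in Hoil1+/+ f/f, 563, 569 and 67.6 CPM in Hoil1+/+ ΔIEC, 613, 354 and 25.3 CPM in Hoil1-/- f/f, and 34.8, 16.2 and 103 CPM in Hoil1-/- ΔIEC. The high libraries were the enterocyte-rich ones, and within every genotype the lowest library was among the enterocyte-poor ones. It lies on chromosome 17, at chr17:32905070-32917342, on the same chromosome as 4 of the other Cyp4f members.

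Cyp1b1, which oxidizes estrogens and polycyclic hydrocarbons, was the next highest per kb of exon at 18.7 CPM per kb and had another pattern. It measured 80.4, 216 and 162 CPM in Hoil1+/+ f/f, 40.9, 23.1 and 138 CPM in Hoil1+/+ ΔIEC, 47.5, 94.3 and 27.6 CPM in Hoil1-/- f/f, and 126, 124 and 150.4 CPM in Hoil1-/- ΔIEC. Its lowest value of all tested libraries stood in the library with the highest enterocyte sum, and its highest in a library with a high endothelial sum. Cyp1a1, the textbook target of the aryl hydrocarbon receptor, reached 31.2 and 30.4 CPM in the enterocyte-poor Hoil1+/+ ΔIEC replicate 3 and Hoil1+/+ f/f replicate 2, and was at 0 in Hoil1-/- f/f replicates 2 and 3.

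The next 3 cytochrome P450 genes per kb of exon were Cyp2d26 (16.1 CPM per kb), Cyp2j6 (11.9), an epoxygenase of arachidonic acid, and Cyp4b1 (11.7), which hydroxylates medium-chain fatty acids and bioactivates some toxins. Cyp2d26 spanned the widest range of these, 0.671 to 263 CPM, with 135 and 165 CPM in Hoil1+/+ ΔIEC replicates 1 and 2, 263 CPM in Hoil1-/- f/f replicate 1, and 1.44 and 0.671 CPM in Hoil1-/- ΔIEC replicates 1 and 2. Cyp2j6 spanned 12.5 to 83.5 CPM and Cyp4b1 14.4 to 88.0 CPM.

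The Cyp3 family holds the main drug oxidases of liver and gut, and its mouse prototype Cyp3a11 is a known PXR target. Cyp3a11 measured 51.2, 8.28 and 8.18 CPM in Hoil1+/+ f/f, 75.7, 96.2 and 5.64 CPM in Hoil1+/+ ΔIEC, 154, 116 and 6.57 CPM in Hoil1-/- f/f, and 2.64, 0 and 53.2 CPM in Hoil1-/- ΔIEC. Cyp3a13 measured 45.3, 10.1 and 17.3 CPM in Hoil1+/+ f/f, 157, 108 and 7.92 CPM in Hoil1+/+ ΔIEC, 160, 79.5 and 15.0 CPM in Hoil1-/- f/f, and 6.63, 2.31 and 51.2 CPM in Hoil1-/- ΔIEC. Both genes were at 51.2 CPM or more in Hoil1-/- ΔIEC replicate 3, the enterocyte-rich library of that genotype.

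Cyp3a25, another Cyp3a monooxygenase on chromosome 5 (chr5:145977194-146009618), did not follow them there. It measured 20.0, 2.35 and 2.55 CPM in Hoil1+/+ f/f, 24.3, 51.8 and 12.1 CPM in Hoil1+/+ ΔIEC, 36.8, 9.29 and 8.47 CPM in Hoil1-/- f/f, and 0, 0 and 0.273 CPM in Hoil1-/- ΔIEC. The 3 Hoil1-/- ΔIEC libraries thus held 2 Cyp3a25 reads in all, both in replicate 3, and lay below every other CD45- library. In that replicate Cyp3a25 took 0.26% of the reads of the 4 Cyp3 members, while in the other genotypes its share ran from 4.51% to 47.1%.

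**Figure D2:**
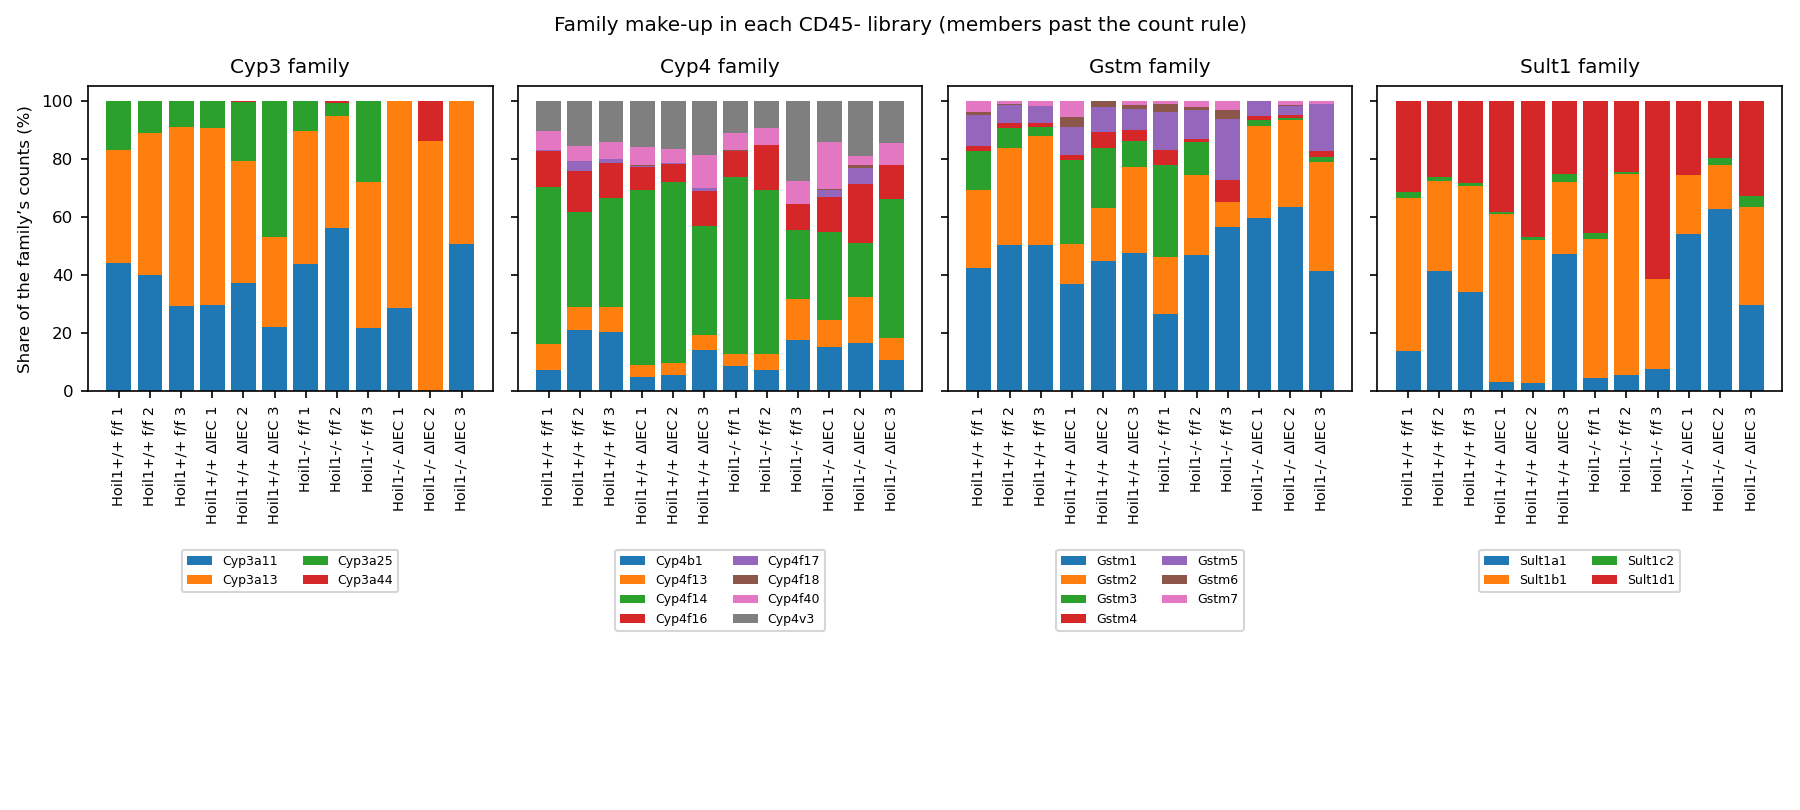
Share of each member in the reads of its family (vertical axis, %) in the 12 CD45- libraries for Cyp3, Cyp4, Gstm and Sult1. Longer transcripts give more reads, so heights compare libraries and not genes. Cyp3a25 took up to 47.1% of Cyp3 reads (Hoil1+/+ ΔIEC replicate 3) and Sult1a1 from 2.88% to 62.8% of Sult1 reads.

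Cyp2c55, an arachidonic acid hydroxylase of the gut and liver at chr19:39007019-39042693, was also low in every Hoil1-/- ΔIEC library. It measured 13.2, 2.04 and 6.95 CPM in Hoil1+/+ f/f, 15.3, 39.3 and 29.6 CPM in Hoil1+/+ ΔIEC, 13.7, 4.75 and 0 CPM in Hoil1-/- f/f, and 0.325, 0.932 and 0.820 CPM in Hoil1-/- ΔIEC. The Hoil1+/+ ΔIEC libraries all lay above the Hoil1-/- ΔIEC libraries, the enterocyte-poor replicate 3 of Hoil1+/+ ΔIEC included. Cyp2c65 and Cyp2c68, on the same chromosome, did not share this: in Hoil1-/- ΔIEC replicate 3 they stood at 18.99 and 14.48 CPM.

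The promoter windows of 4 cytochrome P450 genes are shown because they stand for the patterns in these data: Cyp3a25 and Cyp2c55, low in every Hoil1-/- ΔIEC library, Cyp4f14, the cytochrome P450 gene with the highest CD45- median for its length, and Cyp4f18, the 1 member with all CD45+ libraries above all CD45- libraries. Each is the 250 bases before a RefSeq start in GRCm38.p6, written 5′ to 3′ on the strand of the gene, with capitals for the letters named after it on either strand. Cyp3a25 had 2 such windows and Cyp4f14 had 4, and the first listed is shown.
Cyp3a25 (chr5:146009619-146009868, minus strand): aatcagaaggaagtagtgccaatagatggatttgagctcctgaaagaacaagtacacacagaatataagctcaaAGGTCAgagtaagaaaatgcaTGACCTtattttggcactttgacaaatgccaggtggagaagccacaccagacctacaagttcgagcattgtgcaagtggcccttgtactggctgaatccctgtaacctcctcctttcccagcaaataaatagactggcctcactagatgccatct
Cyp2c55 (chr19:39006769-39007018, plus strand): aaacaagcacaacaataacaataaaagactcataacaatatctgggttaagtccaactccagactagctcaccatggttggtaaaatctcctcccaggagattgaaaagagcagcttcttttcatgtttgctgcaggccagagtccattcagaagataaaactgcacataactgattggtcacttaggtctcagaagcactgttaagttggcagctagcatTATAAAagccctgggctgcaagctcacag
Cyp4f14 (chr17:32917357-32917606, minus strand): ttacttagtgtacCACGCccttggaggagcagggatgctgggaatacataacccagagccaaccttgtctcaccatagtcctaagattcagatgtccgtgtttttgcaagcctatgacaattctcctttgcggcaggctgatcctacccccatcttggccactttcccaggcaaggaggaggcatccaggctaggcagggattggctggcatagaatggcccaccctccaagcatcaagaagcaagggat
Cyp4f18 (chr8:72009627-72009876, minus strand): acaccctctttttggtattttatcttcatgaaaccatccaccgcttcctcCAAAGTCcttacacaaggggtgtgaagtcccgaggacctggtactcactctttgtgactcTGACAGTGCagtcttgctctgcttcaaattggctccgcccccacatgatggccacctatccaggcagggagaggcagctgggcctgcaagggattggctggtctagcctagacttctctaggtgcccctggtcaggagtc
Capitals mark AGGTCA, the nuclear receptor half-site, at -176 and, on the other strand, -155 in Cyp3a25, TATAAA, the TATA box, at -29 in Cyp2c55, GCGTG, the core bound by the aryl hydrocarbon receptor, at -237 on the other strand in Cyp4f14, and in Cyp4f18 CAAAGTC, an HNF4 core, at -200 and TGACNNNGC, the antioxidant response core, at -140.

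Over the longer window of the promoter table, 250 bases before to 50 after the start, 48 of the 53 members had an entry, and 10 letter patterns were searched on both strands. AGGTCA stood in 18.8% of the members and 18.1% of all 27025 genes with an entry, GCGTG in 33.3% and 35.2%, TGACNNNGC in 16.7% and 14%, TTTATG, a CDX core, in 12.5% and 13.6%, and AGTTCA, a half-site variant, in 14.6% and 15.7%. CAAAGTC stood in 16.7% of members and 5% of all genes, GTTAAT, an HNF1 half-site, in 18.8% and 8.24%, GATAAG, known from erythroid and gut zinc-finger factors, in 18.8% and 8.58%, TATAAA in 22.9% and 15.7%, and TTTATN, a short CDX core, in 58.3% and 43.8%. The last of these also matches every CDX core and, on the other strand, every TATA box. The CAAAGTC holders were Cyp2ab1, Cyp2c65, Cyp2c66, Cyp2c68, Cyp3a11, Cyp4f18, Gstm3 and Sult1b1. Cyp4f14 was among the holders of TGACNNNGC and GTTAAT, both outside the stretch shown above. These are letter matches, not sites of binding, and no test was run on them.

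Among the glucuronosyltransferases, which couple glucuronic acid to steroids, bilirubin and drugs, Ugt2b34 had the highest level for its length, 12.03 CPM per kb, and took 71.3% to 90.5% of the reads of the 4 Ugt2b members in each CD45- library. It measured 78.2, 29.1 and 50.7 CPM in Hoil1+/+ f/f, 168, 113 and 46.2 CPM in Hoil1+/+ ΔIEC, 114, 70.7 and 46.5 CPM in Hoil1-/- f/f, and 33.1, 17.4 and 53.02 CPM in Hoil1-/- ΔIEC. Ugt1a1, the bilirubin transferase (3.91 CPM per kb), Ugt1a7c (2.77), Ugt2b35 (2.3) and Ugt2b36 (0.697) followed. Ugt1a7c was the only one of the 7 Ugt members with reads in all 12 CD45+ libraries, at 2.36 to 23.5 CPM there and 3.68 to 34.7 CPM in CD45- libraries. The Ugt1a genes share their last exons: 77.4% of 100-base windows of Ugt1a1, 51.6% of Ugt1a7c and 50.4% of Ugt1a6a occur in another gene, so reads between them are uncertain.

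The glutathione S-transferases, which couple glutathione to electrophiles, included the 2 members with the highest levels for their length, Gstm1 and Gstp1. Gstm1 had a median of 60.9 CPM per kb, Gstp1 47.9, Gstm2 32.3, Gstt1 16.5 and Gstm3 13.4. Gstm1 measured 67.1, 126 and 143 CPM in Hoil1+/+ f/f, 50.6, 69.2 and 94.3 CPM in Hoil1+/+ ΔIEC, 40.4, 85.3 and 70.8 CPM in Hoil1-/- f/f, and 132, 185 and 105 CPM in Hoil1-/- ΔIEC. Its highest value was in the library with the lowest enterocyte sum, and Gstm2, at 11.03 to 106 CPM, was at 87.7 CPM in that library and at 18.6 CPM in Hoil1+/+ ΔIEC replicate 1.

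Gstm3, in the same gene cluster of chromosome 3, differed from them. It measured 20.96, 17.3 and 8.91 CPM in Hoil1+/+ f/f, 39.5, 32.0 and 17.9 CPM in Hoil1+/+ ΔIEC, 48.1, 20.1 and 0 CPM in Hoil1-/- f/f, and 4.83, 1.72 and 4.51 CPM in Hoil1-/- ΔIEC. The Hoil1-/- ΔIEC libraries lay below every other CD45- library except Hoil1-/- f/f replicate 3, the one the study left out. Of its 100-base windows, 13.8% occur in another gene. Gstp1 lay at 49.5 to 145 CPM in CD45- and 35.9 to 71.3 CPM in CD45+ libraries, and 25.1% of its windows are shared. Gsta1, at no more than 6.23 CPM, shares 80.6% of its windows with another gene and its own level is uncertain.

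Of the sulfotransferases, Sult1a1, which sulfates phenols, had 7.53 CPM per kb, Sult1d1, which acts on catecholamines, 7.10, Sult1b1, which acts on thyroid hormones and phenols, 5.73, and Sult1c2 0.561. Sult1b1 measured 32.3, 14.8 and 15.5 CPM in Hoil1+/+ f/f, 109, 109 and 14.48 CPM in Hoil1+/+ ΔIEC, 75.2, 90.4 and 9.69 CPM in Hoil1-/- f/f, and 8.58, 3.73 and 16.4 CPM in Hoil1-/- ΔIEC. Sult1d1 had like values, 72.1 and 104 CPM in Hoil1+/+ ΔIEC replicates 1 and 2 and 71.7 CPM in Hoil1-/- f/f replicate 1 against 4.85 to 31.9 CPM elsewhere. Sult1a1 was highest instead in the enterocyte-poor Hoil1+/+ ΔIEC replicate 3, at 27.3 CPM, and in CD45+ libraries, at 6.997 to 55.3 CPM.

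In CD45+ libraries the highest medians were those of Cyp4f18 (169 CPM), Gstp1 (42.9), Cyp4f16 (29.0), Cyp4v3 (24.1) and Sult1a1 (24.1). Cyp4f18, at chr8:71988482-72009626, is the leukotriene B4 hydroxylase of myeloid cells. It measured 171, 97.5 and 252 CPM in Hoil1+/+ f/f, 70.6, 74.3 and 191 CPM in Hoil1+/+ ΔIEC, 199, 112 and 99.7 CPM in Hoil1-/- f/f, and 169, 170 and 195 CPM in Hoil1-/- ΔIEC. The genotypes overlapped. In CD45- libraries it had no read in 7 and at most 3.30 CPM in the other 5.

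Genotypes were compared with edgeR's quasi-likelihood test, two-sided, with Benjamini-Hochberg adjustment over all 16453 genes tested in the CD45- fraction. No member passed an adjusted p of 0.05 in any of 7 CD45- contrasts. At an unadjusted p under 0.05 stood 5 members for Hoil1-/- against Hoil1+/+ averaged over Il4ra (5.28% of all genes did, and 0.0182% passed the adjusted threshold) and 5 for ΔIEC against f/f averaged over Hoil1 (5.9%, and 0% adjusted). For the interaction, the Hoil1 difference in ΔIEC less that in f/f, there were 25 (20.7%, and 0% adjusted), 20 of them negative. Within f/f there were 13 for Hoil1 (13.1%, and 0.0365% adjusted), 11 of them higher in Hoil1-/-, and within ΔIEC 17 (7.66%, and 0.00608% adjusted), 15 of them lower in Hoil1-/-. For ΔIEC against f/f there were 7 within Hoil1+/+ (4.4%, and 0% adjusted) and 21 within Hoil1-/- (17.7%, and 0.0425% adjusted), 18 of them lower in ΔIEC.

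Single libraries moved these unadjusted counts by more than 1.5 times, except for the interaction. The counts over all genes, given in brackets, moved as well. For Hoil1 in f/f the count was 4 without Hoil1+/+ f/f replicate 2 (1162 of 16066 genes) and 5 without its replicate 3 (1293 of 15967). For Hoil1 in ΔIEC it was 8 and 10 without Hoil1+/+ ΔIEC replicates 1 and 2 (705 of 16315 and 581 of 16325 genes). Without Hoil1-/- ΔIEC replicate 2 it was 9 (663 of 15971). For ΔIEC within Hoil1+/+ it was 15, 2 and 2 without the f/f replicates 1, 2 and 3 (1156 of 16233, 367 of 16066 and 305 of 15967). Without the ΔIEC replicates 1, 2 and 3 it was 3, 1 and 17 (298 of 16315, 300 of 16325 and 2189 of 16019). For ΔIEC within Hoil1-/- it was 13 without ΔIEC replicate 2 (1681 of 15971). Counts without Hoil1-/- f/f replicate 1 or 2 are not given here, since either leaves that group with 1 library. Medians without replicate 1 stand below. Averaged counts were 3 for Hoil1 without Hoil1+/+ f/f replicate 2 (658 of 16066) and 10 for Il4ra without Hoil1-/- ΔIEC replicate 3 (1444 of 16343). Among the fits that kept 2 or more libraries per group, the interaction count was lowest without Hoil1+/+ f/f replicate 2, at 19 (2268 of 16066). It was highest without Hoil1+/+ ΔIEC replicate 3, at 31 (4523 of 16019).

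These contrasts share libraries, so their values are given side by side and not as independent results. The median log2 fold change of the 53 members was -0.07 for Hoil1 and -0.17 for Il4ra averaged (all genes -0.08 and 0.06), 1.15 for Hoil1 in f/f (all genes -0.17), -1.14 for Hoil1 in ΔIEC (0.06), 0.68 for ΔIEC in Hoil1+/+ (-0.05), -1.60 for ΔIEC in Hoil1-/- (0.17) and -2.40 for the interaction (0.29). With the members that had a group at or under 3 reads set to their bound or ratio, the last 5 of these medians were the same to 2 decimals. Without Hoil1-/- f/f replicate 1 the median was 0.61 for Hoil1 in f/f and -0.97 for ΔIEC in Hoil1-/-, and for ΔIEC in Hoil1+/+ it was 1.22 without f/f replicate 1 and 1.13 without ΔIEC replicate 3. With each library left out the averaged medians ran from -0.45 to 0.03 for Hoil1 and from -0.42 to -0.0033 for Il4ra. Both the member medians and the enterocyte sums stood higher in Hoil1-/- than in Hoil1+/+ within f/f and lower within ΔIEC.

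With the log2 enterocyte sum as a covariate the median interaction of the members was -0.64 (all genes 0.07), and 7 members were under an unadjusted p of 0.05, where 6.18% of all genes were. The medians for Hoil1 in f/f and in ΔIEC were then 0.17 and -0.44. With all 12 libraries and that covariate the median interaction was -0.26 (all genes 0.11). With the log2 endothelial sum as the covariate instead, the median interaction was -0.71 (all genes 0.08). By edgeR, 12 members were then under an unadjusted p of 0.05 (1325 of 16453 genes). The medians for Hoil1 in f/f and in ΔIEC were 0.16 and -0.70, with 3 and 12 members under that p (1275 and 899 of 16453 genes). The enterocyte sum itself differed between genotypes, so cell make-up and genotype cannot be told apart in what the covariate removes. The part of cell make-up in the differences, with or without the covariate, was not tested. Libraries and test decided the calls for the interaction and for ΔIEC within Hoil1-/-. The interaction was past the adjusted threshold for 13 members without Hoil1+/+ ΔIEC replicate 3 (7.48% of all genes) and for 9 without Hoil1-/- f/f replicate 2 (4.13%), and ΔIEC within Hoil1-/- for 5 without the latter (3.29%), which leaves that group with 1 library assumed to vary like the rest. DESeq2 called 19 members for the interaction (7.72% of all genes), 11 for ΔIEC within Hoil1-/- (6.14%), 3 for Hoil1 averaged (1.01%), 2 for Il4ra averaged (0.985%), 2 for Hoil1 in f/f (3.21%), 6 for Hoil1 in ΔIEC (0.686%) and 0 for ΔIEC within Hoil1+/+ (0.113%). The edgeR likelihood ratio test called 16 (7.43%), 9 (3.99%), 2 (0.821%), 1 (0.869%), 2 (2.13%), 5 (0.377%) and 0 (0.0122%) in the same order. The edgeR exact test, run on 1 pair of groups at a time, called 9 for ΔIEC within Hoil1-/- (4.69%), 4 for Hoil1 in f/f (2.79%), 3 for Hoil1 in ΔIEC (0.359%) and 0 for ΔIEC within Hoil1+/+ (0%). The tests differed in direction for Hoil1 in f/f. There the 2 members called by DESeq2 and the 2 by the likelihood ratio test were lower in Hoil1-/-, and the 4 by the exact test were higher. For Hoil1 in ΔIEC all members called by these tests were lower in Hoil1-/-. Of the interaction calls, 15 by DESeq2 and 13 by the likelihood ratio test were negative.

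**Figure D3:**
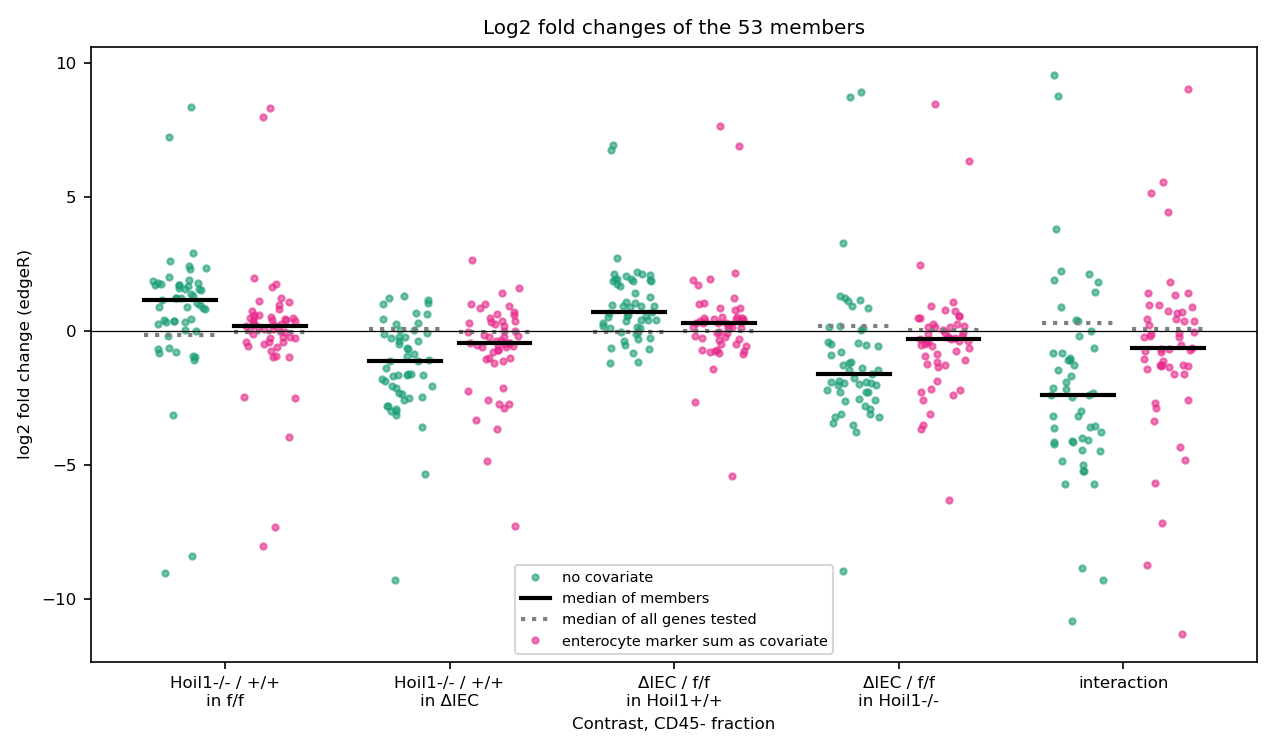
Log2 fold change of each of the 53 members (points) in 5 CD45- contrasts, without (green) and with (pink) the enterocyte marker sum as a covariate, from edgeR. Black bars are member medians and dotted bars medians of all genes tested. The interaction median is -2.40 without and -0.64 with the covariate.

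Cyp3a25 and Cyp2c55 had the smallest interaction p among the members, followed by Gstm3. The interaction log2 fold change of Cyp2c55 was -5.70 (SE 1.11, adjusted p = 0.106 by edgeR), and that of Gstm3 was -4.15 (SE 0.82, adjusted p = 0.106). That of Cyp3a25 was -10.81 (SE 1.95, adjusted p = 0.106), a value that depends on the prior count because 1 group held 2 reads. Over the summed reads, Cyp3a25 was 457-fold higher in Hoil1+/+ ΔIEC than in Hoil1-/- ΔIEC, with an exact 95% interval of 126 to 3777 that covers counting error only, and 485-fold higher in Hoil1-/- f/f than in Hoil1-/- ΔIEC (134 to 4017). With the enterocyte covariate the interaction was -7.16 for Cyp3a25 (adjusted p = 0.434), -4.82 for Cyp2c55 and -2.60 for Gstm3 (adjusted p = 0.747 for both), and with all 12 libraries as well it was -8.09, -3.25 and -0.73. With the endothelial sum in its place, Cyp3a25 passed the threshold for Hoil1 averaged (adjusted p = 0.0464 by edgeR, from 0.00633 to 1 over its alternatives) and for Hoil1 within ΔIEC (adjusted p = 0.0174, from 7.84e-10 to 1). It was the 1 member called in each, where 0.0729% and 0.0182% of all genes were.

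**Figure D4:**
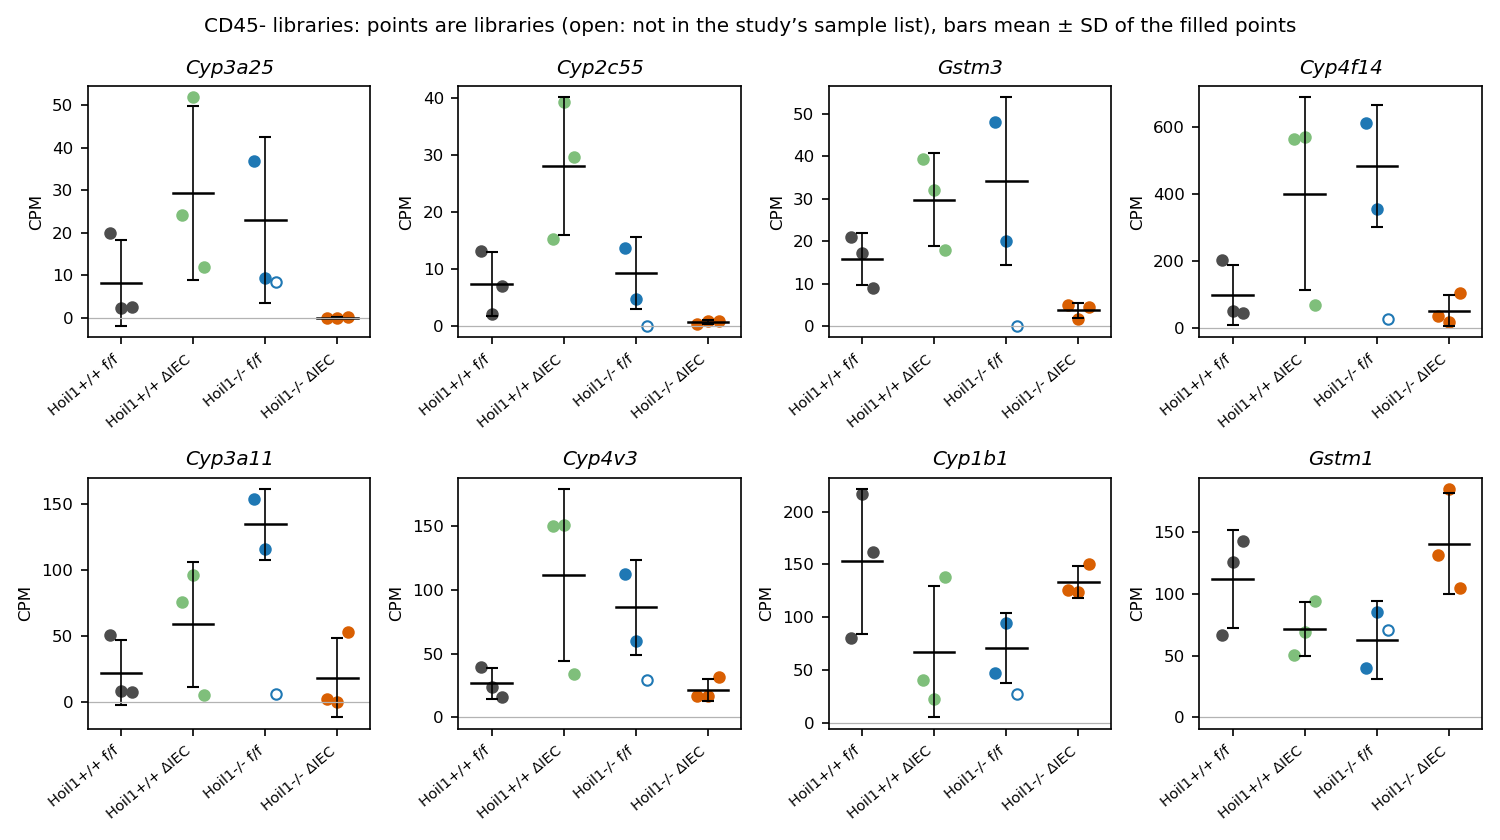
CPM of 8 members in the CD45- libraries (points), by genotype, on linear axes with a line at 0. Bars are the mean ± SD of the filled points, and the open point is Hoil1-/- f/f replicate 3, which the study left out. Cyp3a25, Cyp2c55 and Gstm3 are low in all 3 Hoil1-/- ΔIEC libraries, while Cyp3a11 reaches 53.2 CPM in 1 of them.

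The other members with the 2 smallest p in a contrast did not pass the adjusted threshold either. Cyp4f17, a low Cyp4f hydroxylase, was at 1.25, 5.43 and 1.51 CPM in Hoil1+/+ f/f and had no read in any Hoil1-/- f/f library. Over the tested libraries that is at least 41.3-fold lower in Hoil1-/- f/f, taking 3 reads over the group as the floor (adjusted p = 0.303 by edgeR). Cyp4f16 was 1.79 higher on the log2 scale in Hoil1-/- f/f than in Hoil1+/+ f/f (SE 0.56, adjusted p = 0.315). Cyp4v3, a fatty acid omega-hydroxylase, was 2.09 higher on that scale in ΔIEC than in f/f within Hoil1+/+ (SE 0.59, adjusted p = 0.875), and Sult1d1 2.13 higher (SE 0.68, adjusted p = 0.875). Gstm3 was lower in ΔIEC than in f/f within Hoil1-/-, by a log2 fold change of -3.22 (SE 0.62, adjusted p = 0.118).

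By non-overlap, a pattern chosen after seeing the values, both tested Hoil1-/- f/f libraries lay above all Hoil1+/+ f/f libraries for 25 members (15.6% of all genes) and below them for 5 (19.8%), namely Cyp1a1, Cyp2ab1, Cyp2d22, Cyp4f17 and Sult1a1. All Hoil1-/- ΔIEC libraries lay below all Hoil1+/+ ΔIEC libraries for 11 (6.13%). Both held for 7 (2.14%): Cyp2s1, Cyp4b1, Cyp4f40, Cyp4v3, Gsta1, Gstm6 and Ugt2b36. Gstm1 and Gstm2 were the 2 members whose Hoil1-/- ΔIEC libraries all lay above those of Hoil1+/+ ΔIEC, where 5.69% of all genes did so.

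By family, the members at an unadjusted p under 0.05 for the interaction, where 20.7% of all genes stood, were 7 of 8 Cyp4, 6 of 12 Cyp2, 2 of 4 Cyp3, 1 of 2 Cyp1, 3 of 7 Gstm, 1 of 3 Gsta, 1 of 3 Gstp, 2 of 4 Ugt2b and 2 of 4 Sult1, and none of the 3 Gstt or the 3 Ugt1a members. Differences between families were not tested. Gstm1 and Gstm2, with log2 values of 1.82 and 2.25, and Cyp1b1, with 2.13, were on the positive side, as were Cyp2ab1 and Cyp4f17, each with no read in the tested Hoil1-/- f/f libraries.

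Levels were next set against the marker sums at fixed genotype, over the 11 CD45- libraries of the study. Per doubling of the enterocyte sum, 38 of the 53 members had a positive log2 change (71.7%, against 43.8% of all genes), with a median of 0.23 (all genes -0.04), and 12 exceeded 0.5 (22.6%, against 7.08%). The steepest were Cyp2b10, a known CAR target, at 1.53, Cyp2c66 at 1.19, Cyp3a11 at 1.18, Ugt2b5 at 1.04 and Cyp2d26 at 1.03. The first 3 had no read in Hoil1-/- ΔIEC replicate 2, and Cyp2b10 and Cyp2c66 also none in Hoil1+/+ ΔIEC replicate 3. Ugt2b5, which shares 24.7% of its windows, had none in Hoil1+/+ f/f replicate 2 and Hoil1-/- ΔIEC replicates 1 and 2. The sizes of these values are thus uncertain. The most negative were Cyp1a1 at -0.59, Cyp4f17 at -0.52, Gsta3 at -0.50 and Sult1a1 at -0.30, and Cyp1b1, Gstm1 and Gstm2 were at -0.25, -0.18 and -0.16. Per doubling of the endothelial sum the median of the members was -0.60 (all genes 0.09), and 12 had a positive value (22.6%, against 56.1% of all genes). Over all 12 CD45- libraries 38 of the 52 members tested were positive for the enterocyte sum (73.1%, against 46.9% of all genes). The median was 0.34 (all genes -0.02). All points share the library's scaling, so these values are a description and carry no test.

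**Figure D5:**
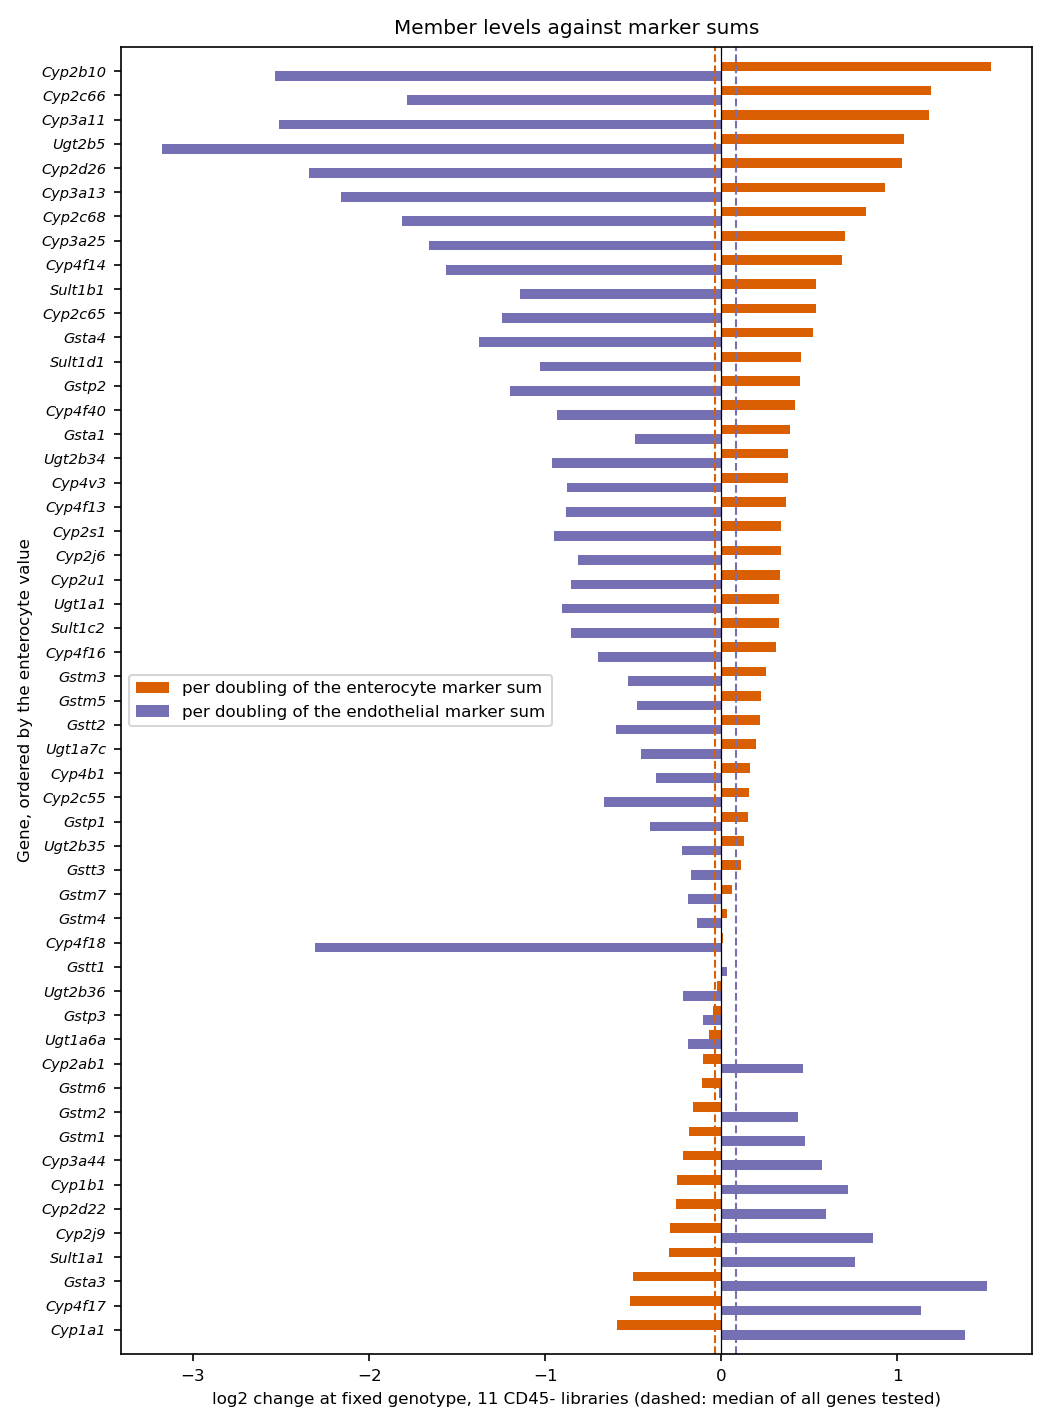
Log2 change of each member per doubling of the enterocyte (orange) and endothelial (purple) marker sums at fixed genotype, over 11 CD45- libraries. Dashed lines are the medians of all genes, -0.04 and 0.09. Cyp2b10, Cyp2c66 and Cyp3a11 lead the enterocyte side and Cyp1a1, Cyp4f17 and Gsta3 lie on the other. Each of these members had no read in at least 1 of the libraries.

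In the CD45+ fraction 47 members could be tested among 17029 genes, and none passed the adjusted threshold with edgeR or with DESeq2. At an unadjusted p under 0.05 by edgeR stood 1 for Hoil1 averaged (5.85% of all genes, and 0.00587% adjusted), 3 for Il4ra averaged (10.6%, and 0.00587% adjusted) and 1 for the interaction (7.01%, and 0% adjusted). Without Hoil1+/+ ΔIEC replicate 1 these counts were 0, 0 and 0 (717, 1557 and 925 of 16788 genes). Without Hoil1+/+ f/f replicate 2 they were 3, 5 and 6 (1836, 2802 and 2230 of 16722 genes). Cyp4f18 had a log2 fold change of -0.07 for Hoil1 averaged (SE 0.34), 0.03 for Il4ra averaged (SE 0.34) and 1.31 for the interaction (SE 0.67, adjusted p = 0.709). Sult1a1 was -0.71 in ΔIEC against f/f (SE 0.31, adjusted p = 0.463), and Gstp1 was -0.24 (SE 0.16, adjusted p = 0.607).

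The 4 lists of partner genes were read from the same fits, and none of their genes passed the adjusted threshold by edgeR in any contrast. For the CD45- interaction, 6 of 18 regulators, 5 of 15 redox partners and cofactor genes, 20 of 41 tested other phase I and II enzymes and 9 of 17 phase III transporters were under an unadjusted p of 0.05, where 20.7% of all genes were, with median log2 values of -1.23, -1.08, -1.53 and -0.21. The highest regulators in CD45- libraries were Hnf4a (149 to 641 CPM) and Cdx1 (39.0 to 180 CPM), both transcription factors of intestinal epithelium. Among the redox genes Cyb5r3 (238 to 412 CPM) and Por, the electron donor of microsomal P450s (65.2 to 218 CPM), led. Of the other enzymes these were the aldehyde dehydrogenases Aldh1b1 (137 to 544 CPM) and Aldh2 (224 to 490 CPM), and of the transporters Slco2a1, a prostaglandin carrier (200 to 963 CPM), and Abcb1a, a P-glycoprotein (45.1 to 159 CPM). Per doubling of the enterocyte sum 31 of the 41 other enzymes, 12 of 15 redox genes, 11 of 18 regulators and 9 of 17 transporters had positive values. Of all genes 43.8% did. The xenobiotic receptors, named here for their role and not by level, differed: Nr1i2 (PXR) measured 7.79 to 79.7 CPM in CD45- and at most 2.31 CPM in CD45+ libraries, while Ahr measured 9.92 to 50.6 CPM in CD45- and 28.7 to 108 CPM in CD45+ libraries.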

How the data were processed

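Read counts per gene were deposited by the authors for 24 libraries made from poly-A RNA of sorted cells. Per the labels and the study's methods, reads were aligned to GRCm38 (mm10) with STAR and assigned to genes with featureCounts, with versions and strand setting not given in the sources used here. Symbols and exon lengths came from GENCODE M21, and 38872 of 39056 identifiers matched by stable ID. CPM was computed from library totals scaled by TMM over all 24 libraries. Tests were edgeR 4.0.16 quasi-likelihood fits (R 4.3.3), 1 mean per genotype, genes filtered at a minimum count of 10 and total of 15. The SE of a log2 fold change is its size divided by the root of F. Promoter sequences are from RefSeq (GRCm38.p6). In simulated interactions, 29.2% of genes changed by 4 on the log2 scale and 2.08% of those changed by 2 were recovered. Named genes were the top 5 of each superfamily per kb, the 2 smallest p per CD45- contrast, the top 5 in CD45+ libraries, those beside the count rule, and the top 2 of each partner list. A few others named for their values (among them Cyp1a1, Cyp3a11, Cyp3a13, Sult1b1 and members of the count lists) were chosen after these were seen. The members and lists were chosen with earlier results of these data known. Alternatives were DESeq2 1.42.0, other edgeR tests, scaling, filters, marker covariates and left-out libraries.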

Additional observations from a re-analysis of the deposited data

Results flagged for a closer look

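For 7 members both tested Hoil1-/- f/f libraries lay above all Hoil1+/+ f/f libraries while all Hoil1-/- ΔIEC libraries lay below all Hoil1+/+ ΔIEC libraries, which held for 2.14% of all genes, and this Hoil1 difference by Il4ra genotype drew attention to them. The interaction log2 fold changes were -3.19 for Cyp2s1, -2.40 for Cyp4b1, -3.59 for Cyp4f40, -4.08 for Cyp4v3, -5.22 for Gsta1, -4.87 for Gstm6 and -4.14 for Ugt2b36, and none passed the adjusted threshold by edgeR. The last 3 members were low. Gsta1, which shares 80.6% of its windows, had no read in Hoil1+/+ f/f replicate 3 and Hoil1-/- ΔIEC replicate 2. Gstm6 had none in Hoil1+/+ f/f replicate 3 and Hoil1-/- ΔIEC replicates 1 and 3. The CD45- median of Ugt2b36 was 0.697 CPM per kb. The enterocyte sums of the same libraries, given with the levels, moved the same way on the whole but overlapped within ΔIEC. The pattern was chosen after seeing the values.

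A pair of family genes that did not pass the CD45- count rule had reads in CD45+ libraries. Cyp2r1, a vitamin D 25-hydroxylase, reached 100 reads, with 10 or more in 4 CD45+ libraries and none in any CD45- library. Cyp4f39, a fatty acid hydroxylase, reached 82 reads, with 10 or more in 3 CD45+ libraries and 1 CD45- library.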

How the results depend on the processing

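The count of members past the adjusted threshold, 0 in all 10 contrasts with edgeR's quasi-likelihood test, moved in 20 of 191 alternative values and stayed within the same range in 171. DESeq2 called 3 members for Hoil1 averaged, 2 for Il4ra averaged, 19 for the interaction, 2 for Hoil1 in f/f, 6 for Hoil1 in ΔIEC and 11 for ΔIEC within Hoil1-/-. The edgeR likelihood ratio test called 2, 1, 16, 2, 5 and 9 in that order. The edgeR exact test called 4 for Hoil1 in f/f, 3 for Hoil1 in ΔIEC and 9 for ΔIEC within Hoil1-/-. Those 4 were higher in Hoil1-/-, while the 2 called for Hoil1 in f/f by DESeq2 and by the likelihood ratio test were lower. With the endothelial covariate 1 was called for Hoil1 averaged and 1 for Hoil1 in ΔIEC, Cyp3a25 in both. Leaving out each library gave 0 to 13 for the interaction (13 without Hoil1+/+ ΔIEC replicate 3, 9 without Hoil1-/- f/f replicate 2) and 0 to 5 for ΔIEC within Hoil1-/- (5 without Hoil1-/- f/f replicate 2), and 0 in the other contrasts. The shares of all genes called stand beside these counts in the results above. The cause of these differences was not tested. Of 502 alternative values of 26 named log2 fold changes none reversed, and 66 passed the threshold where the reported value did not. Using all 12 libraries, other size factors, no filter or the enterocyte covariate called 0 in every contrast.

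The CD45+ sum of the members moved from 368 to 229 CPM under the rule of 6 libraries, which drops Cyp4f18. Under the other alternatives that sum, and under all of theirs the CD45- sum and the family shares, moved by less than 1 SD. All 12 libraries together with the enterocyte covariate, the family shares over the study's libraries, the marker sums over all 12 libraries, the bounds for groups at 0 and the patterns without overlap were chosen after seeing the data. No paired analysis was run. Each test compared genotypes within a fraction, hence different mice, whose replicate numbers follow accession order. The study's controls were co-housed littermates, but the labels used here name no litter or cage, so litter could not be modeled. Depth limited low members: 3 reads equal 0.0365 to 0.410 CPM in CD45- libraries.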
